A study of Homo sapiens with 8 samples.

Results

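Amino acid transporters are membrane carriers that set how much of each amino acid a cell takes up, exchanges or releases from its lysosomes. The genes described here are the rows of the count table whose symbol belongs to carrier families SLC1, SLC3, SLC7, SLC36, SLC38 or SLC43, and the rule finds 40 of 39533 genes. Some carriers work alone, while the light chains of SLC7 reach the surface only when joined to a heavy chain of SLC3. Tumour cells are known for high uptake of glutamine, leucine and cystine through SLC1A5, SLC7A5 and SLC7A11, and several of these genes are targets of ATF4, the transcription factor of the amino acid response.

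RNA was sequenced from HCT116 cells, a line made from a human colorectal cancer, in a model where tumour cells that entered the circulation return to the tumour they left. The series holds 3 libraries of cells that had seeded the tumour again (TSC, tumour self-seeded cells), 2 of tumour cells in the circulation (CTC) and 3 of cells of the primary tumour (PC). Blood was the source of the CTC libraries, and the primary tumour that of the TSC and PC libraries. All 3 groups are the same line with no further treatment named, while the title of the series speaks of liver cancer. The host, its age and how the cells were sorted were details not given in the sources used here. Nothing in the labels says that replicates came from separate animals or cultures, so p-values measure the spread between these libraries, which may be technical.

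Total counts were 4578869 to 14717833 in TSC, 957607 and 10524069 in CTC and 10864761 to 19264595 in PC, so CTC replicate 1 is by far the shallowest library. Levels are given in CPM, each gene's counts scaled by the library's total over the tested genes and its normalization factor. A count of 0 allows up to 2.99 CPM in CTC replicate 1 and 0.156 to 0.668 CPM in the other libraries (3 counts, counting error only). The markers of the line were present: EPCAM, an epithelial adhesion gene, had 472 to 616 CPM in the TSC libraries, 568 and 546 CPM in CTC and 391 to 469 CPM in PC. Of the 7 epithelial markers, VIL1 was near 0, at no more than 0.997 CPM in any library. The 16 leukocyte markers summed to 437 and 166 CPM in CTC, against 22.8 to 29.9 CPM in PC, and were at 35.9 to 54.5 CPM in TSC. CD68 alone made up 21.3 to 49.2 CPM in TSC, 19.9 and 14.2 CPM in CTC and 10.8 to 20.7 CPM in PC, so the higher TSC sums rest on this marker. LYZ was at 94.8 and 23.4 CPM in CTC, against 0.335 to 1.47 CPM in PC, and at 0.423 to 0.668 CPM in TSC. Of these markers CD3E, NKG7, S100A8 and S100A9 were at 0 in all libraries. The 8 erythroid markers summed to 247 and 331 CPM in CTC, against 50.4 to 63.3 CPM in PC, and were at 80.4 to 93.5 CPM in TSC. HBD made up nearly all of the TSC and PC sums, at 80.3 to 93.0 CPM in TSC libraries and 50.3 to 61.7 CPM in PC libraries, and was at 52.9 and 78.5 CPM in CTC. HBB was at 164 and 209 CPM in CTC, against 0 to 0.754 CPM in PC, and at 0.0904 to 0.494 CPM in TSC. The 5 fibroblast markers varied widely within TSC, with sums of 8.69, 31.3 and 111 CPM in replicates 1 to 3. Their sums were 16.0 and 7.73 CPM in CTC and 28.8 to 68.4 CPM in PC.

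Of the 40 transporter genes, 23 had enough counts to be tested, and each of these 23 had counts in all 8 libraries. Another 8 were at 0 in all libraries, namely SLC1A7, SLC36A2, SLC38A4, SLC38A11, SLC7A3, SLC7A4, SLC7A13 and SLC7A14. The table also lists 0 in every library for genes that all cells use, such as the proteasome gene PSMC4 and the ribosomal gene RPS25, so a member at 0 throughout may still be expressed. The remaining 9 had a few counts and were not tested: SLC1A2, SLC1A6, SLC36A3, SLC38A8, SLC3A1, SLC43A2, SLC7A7, SLC7A9 and SLC7A10. Together the 40 genes held 0.29% to 0.315% of the counts in TSC, 0.298% and 0.381% in CTC and 0.259% to 0.292% in PC. Their summed level was 3211, 3218 and 2952 CPM in TSC replicates 1 to 3, 2849 and 3826 CPM in CTC replicates 1 and 2, and 2528, 2922 and 2848 CPM in PC replicates 1 to 3. Each TSC sum lay above each PC sum, CTC replicate 1 lay within the PC range and CTC replicate 2 lay above all other libraries. The TSC and PC sums were close, at 2952 CPM in TSC replicate 3 and 2922 CPM in PC replicate 2, and their shares of counts overlapped. SLC38A2 alone held 30.4% to 45.0% of the member counts of a library.

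The line carried the glutamine and leucine route at the highest levels. To compare genes with each other, CPM was divided by the length of the merged exons in kilobases. On this scale SLC38A2, a sodium-coupled carrier of small neutral amino acids, came highest, at 222 ± 40.5 CPM per kb in TSC, 296 ± 67.3 in CTC and 206 ± 30.1 in PC (SD, n = 3, 2 and 3). SLC7A5, the light chain that exchanges leucine and other large neutral amino acids, came next at 116 ± 21.1 CPM per kb in TSC, 99.8 ± 43.7 in CTC and 98.1 ± 11.4 in PC. Its heavy chain SLC3A2 followed at 89.0 ± 0.83 CPM per kb in TSC, 90.1 ± 17.4 in CTC and 78.4 ± 6.65 in PC. Each TSC and PC library was lower for SLC3A2 than any library of its group was for SLC7A5, whereas the CTC libraries overlapped. SLC1A5, the main glutamine carrier of many tumours, stood below SLC3A2 with 82.7 ± 0.42 CPM per kb in TSC, 69.8 ± 25 in CTC and 62.1 ± 4.98 in PC, and in CTC these neighbours overlapped too.

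After these came SLC38A1, a second sodium-coupled carrier of glutamine, at 38 ± 1.81 CPM per kb in TSC, 43.3 ± 3.85 in CTC and 33.3 ± 3.33 in PC. SLC7A1, the cationic carrier of arginine and lysine, averaged 23.3 CPM per kb over the 8 libraries, SLC38A10 21.1, SLC43A3 15.3, SLC38A5 13.3 and the glutamate carrier SLC1A3 6.53. SLC7A1 and SLC38A10 did not differ beyond their spread in TSC or PC. All other tested members were below these 10 on average, down to 0.704 CPM per kb for SLC38A3. Among the genes tested, the highest mean was that of SLC38A2, at 235 CPM per kb.

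**Figure D1:**
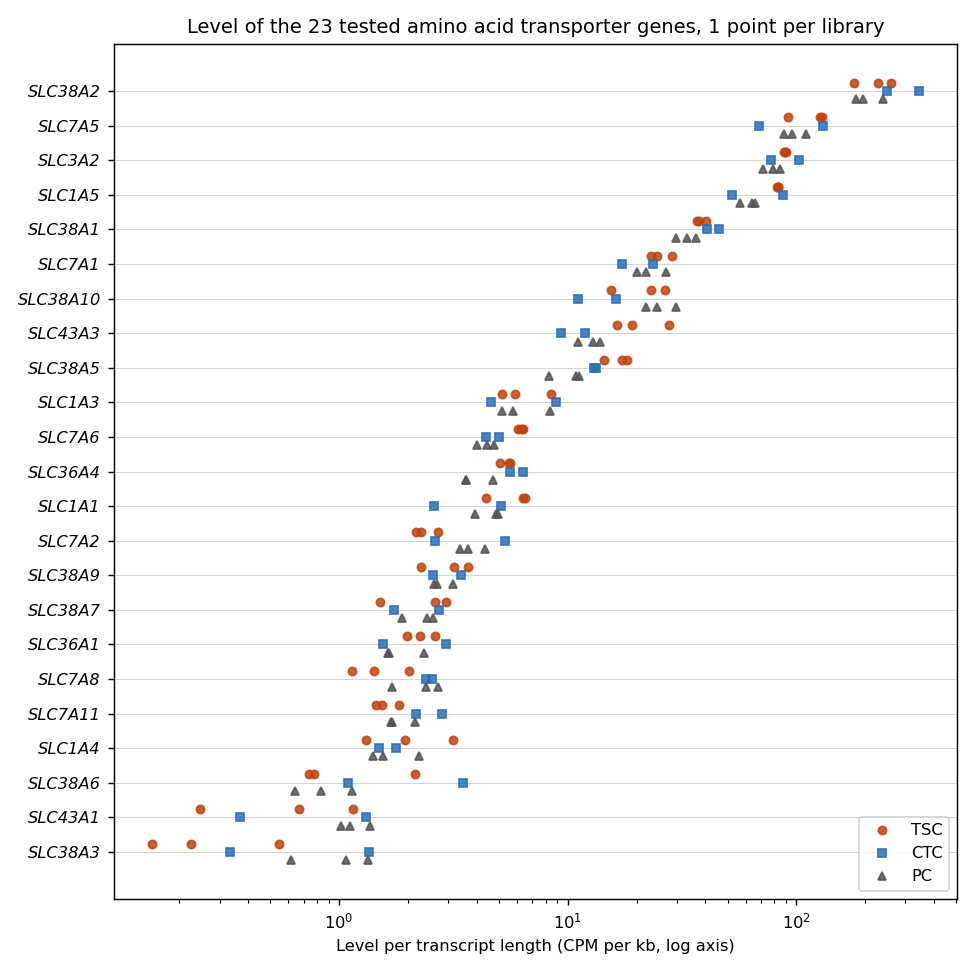
Level of each of the 23 tested transporter genes in CPM per kilobase of merged exons (log axis), with 1 point per library for TSC (circles), CTC (squares) and PC (triangles). Genes are sorted by their mean over the 8 libraries, from SLC38A2 at the top to SLC38A3, and TSC and PC libraries overlap for 14 of the 23 genes.

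Several of these genes are known to respond to amino acid shortage through a promoter element that binds C/EBP and ATF factors. Its core, TGATGNAA, was searched on both strands of the RefSeq promoters (GRCh38.p14, 250 bases before to 50 after each listed start). Of the 31 member genes with an entry 6 held it, against 4.46% of all 27305 genes. By promoter it was in 6 of the 53 of these members (11.3%), against 3.62% of all 35116 promoters. The 6 windows are printed 5′ to 3′ on the strand of the gene, with the core in capitals, to show the base at its open position N and the sequence around it. The other letters of the core are alike by the search itself. In SLC1A4 and SLC3A2 the core lies on the opposite strand, so its reverse complement is in capitals.
SLC1A3 (chr5:36596358-36596385, + strand): aggaaatgacTGATGCAAagcagggtta
SLC1A5 (chr19:46784894-46784921, − strand): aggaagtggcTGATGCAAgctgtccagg
SLC38A1 (chr12:46266503-46266530, − strand): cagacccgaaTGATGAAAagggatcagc
SLC7A1 (chr13:29595664-29595691, − strand): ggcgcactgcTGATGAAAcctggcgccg
SLC1A4 (chr2:64989382-64989409, + strand): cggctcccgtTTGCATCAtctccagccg
SLC3A2 (chr11:62881726-62881748, + strand): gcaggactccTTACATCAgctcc
SLC1A3 and SLC1A5 share the core TGATGCAA, SLC1A4 holds it in reverse, and SLC38A1 and SLC7A1 share TGATGAAA. All 6 genes were among the 23 tested. The windows of SLC1A5, SLC38A1, SLC1A4 and SLC3A2 lie inside the span of the gene, at listed starts other than its outermost one. A match describes these letters alone, and genes without one, such as SLC7A5, may hold the element elsewhere.

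Setting TSC against PC shows how cells that returned to the tumour differ from the primary tumour cells. Self-seeded cells carried somewhat more RNA of SLC43A3, SLC38A5, SLC7A6, SLC36A4 and SLC1A5 than primary cells, by 1.33- to 1.66-fold, and less of SLC7A2, and edgeR called none of these differences. edgeR's quasi-likelihood test called 0 of 23 members at an adjusted p under 0.05, against 0.505% of all 14255 tested genes. DESeq2 called 0 members as well (1.35% of all genes), and limma-voom called SLC38A5 and SLC43A3 (3.88% of all genes). With no filter on low counts edgeR called 0 of 32 members (1.54% of all genes). At an unadjusted p under 0.05 there were 7 of 23 members, against 10.3% of all genes. All TSC libraries lay above all PC libraries for 7 of 23 members (8.96% of all genes) and below them for 2 (9.9% of all genes). The log2 fold change was above 0 for 16 of 23 members (50.7% of all genes), with a median of 0.18, while the median of all genes was 0.01.

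Among the heteromeric carriers, the heavy chain SLC3A2 lies on chromosome 11 (62856109 to 62888860, hg38). It was at 238, 234 and 236 CPM in TSC replicates 1 to 3 and at 190, 225 and 209 CPM in PC replicates 1 to 3. The groups did not overlap, yet the log2 fold change was 0.18 ± 0.16 (SE, adjusted p = 0.743 by edgeR). Its partner SLC7A5 (chromosome 16, 87830023 to 87869507) was at 420, 592 and 582 CPM in TSC and at 405, 438 and 507 CPM in PC (0.24 ± 0.22, adjusted p = 0.751), and the groups overlapped through TSC replicate 1. The ratio of SLC7A5 to SLC3A2 per length was 1.02, 1.46 and 1.43 in TSC, 0.886 and 1.28 in CTC and 1.23, 1.12 and 1.41 in PC, without a separation of the groups.

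SLC7A6, a light chain that exchanges cationic for neutral amino acids, lies on chromosome 16 (68264526 to 68301819). It was at 38.3, 39.7 and 40.3 CPM in TSC, against 28.2, 30.3 and 25.6 CPM in PC. The groups were well apart, at a log2 fold change of 0.50 ± 0.18 (adjusted p = 0.374). The gene overlaps SLC7A6OS on the opposite strand, which was at 41.2, 28.0 and 29.3 CPM in TSC and 20.0, 23.9 and 16.7 CPM in PC. The counting has a strand setting not given in the sources used here, so reads of the pair cannot be told apart where they overlap. The other tested light chains had values of −0.56 ± 0.32 for SLC7A8, a carrier of neutral amino acids, and −0.19 ± 0.23 for SLC7A11, the cystine and glutamate exchanger. SLC7A11 was at 14.9, 14.0 and 17.5 CPM in TSC and 20.7, 16.2 and 16.4 CPM in PC, and its 95% interval of −0.69 to 0.30 holds no difference as large as 2-fold.

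The glutamine carrier SLC1A5 (chromosome 19, 46774883 to 46788594) was nearly the same in all TSC libraries, at 277, 276 and 274 CPM, against 188, 214 and 219 CPM in PC. The lowest TSC library lay above the highest PC library, at 1.33-fold (log2 0.41 ± 0.18, adjusted p = 0.457). SLC1A4, which carries serine and other small neutral amino acids, was at 0.27 ± 0.36, and the glutamate carriers SLC1A1 and SLC1A3 were at 0.32 ± 0.27 and −0.004 ± 0.28. The 95% intervals of these 4 SLC1 genes reached no further than 2.05-fold, the upper bound of SLC1A4.

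Of the sodium-coupled SLC38 genes, SLC38A5, a carrier of glutamine, histidine and asparagine on chromosome X (48458544 to 48470260), had the smallest p of all members in TSC against PC. It was at 54.4, 45.2 and 57.1 CPM in TSC, against 34.4, 35.4 and 26.2 CPM in PC. Each TSC library was above each PC library, at 1.63-fold (log2 0.71 ± 0.19, adjusted p = 0.156), and limma-voom called it (adjusted p = 0.0169). Over the 15 alternatives its adjusted p ranged from 0.0169 to 0.609. SLC38A2 was at 1301, 1134 and 898 CPM in TSC and 912, 1200 and 979 CPM in PC, with overlapping groups (0.11 ± 0.18, adjusted p = 0.881). SLC38A1 was at 374, 348 and 342 CPM in TSC and 311, 279 and 341 CPM in PC, so that the groups just failed to overlap (0.19 ± 0.15, adjusted p = 0.704).

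SLC38A3, another glutamine carrier, had the largest fold change on few counts, at 0.668, 1.62 and 0.452 CPM in TSC and 3.18, 1.84 and 4.0 CPM in PC. TSC replicates 1 and 3 held only 3 and 5 counts, and the log2 fold change of −1.65 ± 0.70 was not called (adjusted p = 0.437). The lysosomal genes of the family lay close to 0. SLC38A9, the arginine sensor of the lysosome, was at 0.11 ± 0.29 and SLC38A7, an exporter of lysosomal glutamine and asparagine, at 0.06 ± 0.30.

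SLC43A3, which despite its family carries purine nucleobases, lies on chromosome 11 (57406954 to 57427580). It was at 80.0, 47.6 and 55.2 CPM in TSC, against 32.2, 40.1 and 37.2 CPM in PC. All TSC libraries were above all PC libraries, with TSC replicate 1 highest, at a log2 fold change of 0.73 ± 0.21 (adjusted p = 0.209). Without TSC replicate 1 the value was 0.47 ± 0.20 (adjusted p = 0.54), and limma-voom called the gene (adjusted p = 0.0381). SLC43A1, a facilitator of large neutral amino acids, was at 0.668 to 3.11 CPM in TSC libraries and 2.76 to 3.68 CPM in PC libraries (−0.68 ± 0.61, adjusted p = 0.751).

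Of the cationic carriers, SLC7A2 was lower in each TSC library than in any PC library, at 17.2, 18.1 and 21.4 CPM in TSC, against 34.4, 26.7 and 29 CPM in PC (log2 −0.66 ± 0.25, adjusted p = 0.383). SLC7A1 was at 171, 211 and 180 CPM in TSC and 147, 162 and 198 CPM in PC, with overlapping groups (0.15 ± 0.18, adjusted p = 0.832). Of the proton-coupled genes, SLC36A4 was at 35, 31.8 and 34.9 CPM in TSC, against 29.6, 22.6 and 22.5 CPM in PC (0.44 ± 0.20, adjusted p = 0.457), and SLC36A1, which works at the lysosome, was at 0.28 ± 0.29. The 95% interval stayed within 2-fold in both directions for 15 of the 23 members.

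**Figure D2:**
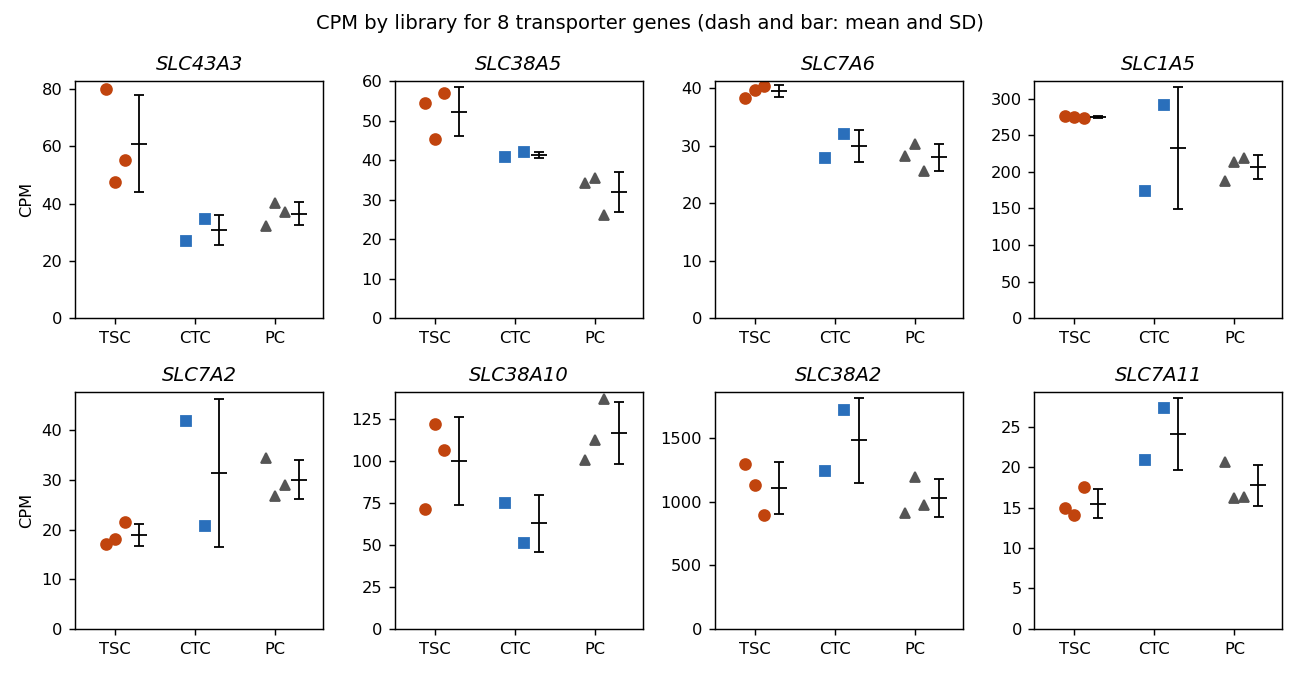
CPM by library for 8 transporter genes in TSC (circles), CTC (squares) and PC (triangles), with the mean and SD of each group beside its points. SLC43A3, SLC38A5, SLC7A6 and SLC1A5 are higher in each TSC library than in any PC library, SLC7A2 is lower, and SLC38A10 is lowest in the CTC libraries apart from TSC replicate 1.

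Setting CTC against PC shows how cells taken from blood differ from cells of the tumour. Circulating cells carried 1.92-fold less RNA of SLC38A10 and 1.30- to 1.53-fold more of the glutamine carriers SLC38A2 and SLC38A1 and of SLC36A4, and none of these was called by edgeR. It called 0 of 23 members, against 3.92% of all tested genes (1.4% higher and 2.52% lower). DESeq2 and limma-voom each called 1, SLC38A10, beside 7.94% and 11.6% of all genes. Unadjusted p under 0.05 was reached by these 4 of 23 members alone, against 23.6% of all genes. Both CTC libraries lay above all PC libraries for 5 of 23 members (19.9% of all genes) and below them for 1 (24.7% of all genes). The log2 fold change was above 0 for 14 of 23 members (47.4% of all genes). Its median size, without its sign, was 0.19 over the members and 0.44 over all genes.

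SLC38A10, a less studied SLC38 gene on chromosome 17 (81244811 to 81295307), was at 74.8 and 50.9 CPM in CTC, against 101, 112 and 137 CPM in PC. TSC replicates 1 to 3 were at 71.1, 122 and 106 CPM, so TSC replicate 1 fell between the CTC libraries. The log2 fold change of CTC over PC was −0.94 ± 0.27, just short of the threshold (adjusted p = 0.0611 by edgeR). The gene was called by DESeq2 (adjusted p = 0.019), by limma-voom (adjusted p = 0.0114), with only the CTC and PC libraries in the fit (adjusted p = 0.0221) and without CTC replicate 1 (−1.20 ± 0.32, adjusted p = 0.0487). Without CTC replicate 2 it was at −0.65 ± 0.34 (adjusted p = 0.421), and the adjusted p over all 15 alternatives ran from 0.00172 to that value. Nor did edgeR call SLC38A10 without any 1 PC library (adjusted p = 0.104 to 0.191). The same held without TSC replicate 3 (adjusted p = 0.102) and with the replicate block (adjusted p = 0.141). Calls over all genes moved too, from 559 in the main fit to 1409 with only the CTC and PC libraries. They were 154 to 182 without any 1 PC library, 285 without TSC replicate 3 and 261 with the block. Both CTC libraries also carried more leukocyte and erythroid marker RNA than any PC library, and less fibroblast marker RNA. TSC replicate 1 had less fibroblast marker RNA than any PC library too. The part of other cells in the TSC and CTC values was not tested.

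SLC38A2 was at 1246 and 1722 CPM in CTC, against 912, 1200 and 979 CPM in PC. CTC replicate 1 was only slightly above the highest PC library, and the log2 fold change was 0.53 ± 0.20 (adjusted p = 0.128). SLC38A1 was at 378 and 429 CPM in CTC, against 311, 279 and 341 CPM in PC (0.38 ± 0.17, adjusted p = 0.185). SLC38A5 was at 40.9 and 42.0 CPM in CTC, between TSC and PC (0.38 ± 0.22 over PC, adjusted p = 0.322). SLC36A4 was at 34.9 and 40.2 CPM in CTC (0.61 ± 0.23 over PC, adjusted p = 0.127). The largest fold change was that of SLC38A6, on few counts. It was at 6.98 and 2.19 CPM in CTC, against 1.68, 1.29 and 2.28 CPM in PC. The groups overlapped, CTC replicate 1 held 7 counts, and the value was 1.14 ± 0.82 (adjusted p = 0.421).

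The cystine exchanger SLC7A11, on chromosome 4 (138164097 to 138242349), was at 20.9 and 27.3 CPM in CTC, against 20.7, 16.2 and 16.4 CPM in PC. CTC replicate 1 exceeded PC replicate 1 by a margin far below its counting error, since it held 21 counts, and the log2 fold change was 0.49 ± 0.27 (adjusted p = 0.288). SLC7A5 differed between the CTC libraries themselves, at 316 and 600 CPM, which lie below and above all PC libraries (0.04 ± 0.24, adjusted p = 0.943). SLC1A5 did the same, at 174 and 291 CPM (0.19 ± 0.21, adjusted p = 0.612). SLC3A2 was at 206 and 272 CPM (0.21 ± 0.18, adjusted p = 0.502) and SLC7A1 at 127 and 174 CPM (−0.15 ± 0.21, adjusted p = 0.688). For 16 of the 23 members the 95% interval stayed within 2-fold in both directions.

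SLC7A7, a light chain that releases cationic amino acids and is known from macrophages and from kidney and gut epithelium, had counts mainly in CTC. It held 9 counts in CTC replicate 1, or 8.98 CPM with a 95% Poisson interval of 4.10 to 17.0 CPM, and 1 count in CTC replicate 2 (0.0954 CPM). PC libraries had 0 counts, and TSC had 2 in replicate 3 and 0 in the others. The 1 count of CTC replicate 2 lies below that library's floor of 0.286 CPM, so the difference from PC rests on CTC replicate 1 and no fold is given. The gene missed the count filter; with no filter edgeR called it in CTC against PC (adjusted p = 0.0472), beside 6.68% of all genes, and 9 of the 10 CTC counts were from 1 library. CTC replicate 1 also had the highest leukocyte marker sum, 437 CPM against 166 CPM in CTC replicate 2, and their part in the SLC7A7 counts was not tested. In bulk RNA, fewer cells of a type and less RNA per cell cannot be told apart.

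The kidney and gut pair of SLC3A1 and SLC7A9, which takes up cystine and cationic amino acids, was close to absent. SLC3A1 had 0.0904 to 0.446 CPM in TSC, 0 counts in both CTC libraries and 0.156 to 0.503 CPM in PC. SLC7A9 had 0 to 0.362 CPM in TSC, 0.997 and 0 CPM in CTC and 0.251 to 0.415 CPM in PC. At this depth no difference between the groups was detectable for either gene. SLC1A2, the main glutamate carrier of astrocytes, reached at most 0.633 CPM, and SLC43A2, a facilitator of large neutral amino acids, 1.01 CPM, in PC replicate 1.

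TSC and CTC have both left the primary tumour at some point, and the direct comparison asks where they differ. SLC43A3 was 1.91-fold higher in TSC than in CTC and SLC7A11 1.6-fold lower, and edgeR called neither at its usual filter. edgeR called 0 of 23 members, against 0.898% of all tested genes, and DESeq2 and limma-voom called 0 too (2.71% and 3.09% of all genes). With no filter edgeR called SLC43A3 (3.17% of all genes). Unadjusted p under 0.05 was reached by 4 members, SLC43A3, SLC38A10, SLC7A11 and SLC1A1, against 16.7% of all genes. SLC1A1 was at 0.76 ± 0.35 with overlapping groups (adjusted p = 0.293 by edgeR). The largest fold change was again that of SLC38A3, at −1.65 ± 0.80 (adjusted p = 0.316), with overlapping groups and 1 count in CTC replicate 1. Of 23 members 12 had a log2 fold change above 0 (55% of all genes). All TSC libraries lay above both CTC libraries for 3 members, SLC43A3, SLC38A5 and SLC7A6 (15.4% of all genes), and below them for 3, SLC38A1, SLC7A11 and SLC7A8 (13% of all genes). SLC43A3 was at 47.6 to 80.0 CPM in TSC, against 26.9 and 34.4 CPM in CTC (0.93 ± 0.26, adjusted p = 0.111). SLC7A11 was at 14.0 to 17.5 CPM in TSC, against 20.9 and 27.3 CPM in CTC (−0.68 ± 0.27, adjusted p = 0.23). SLC38A10 was at 0.72 ± 0.26 (adjusted p = 0.195) and became a call without TSC replicate 1 (0.93 ± 0.23, adjusted p = 0.0357). Calls over all genes rose there from 128 to 696. This comparison and the others share libraries, so their values are not independent of each other.

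**Figure D3:**
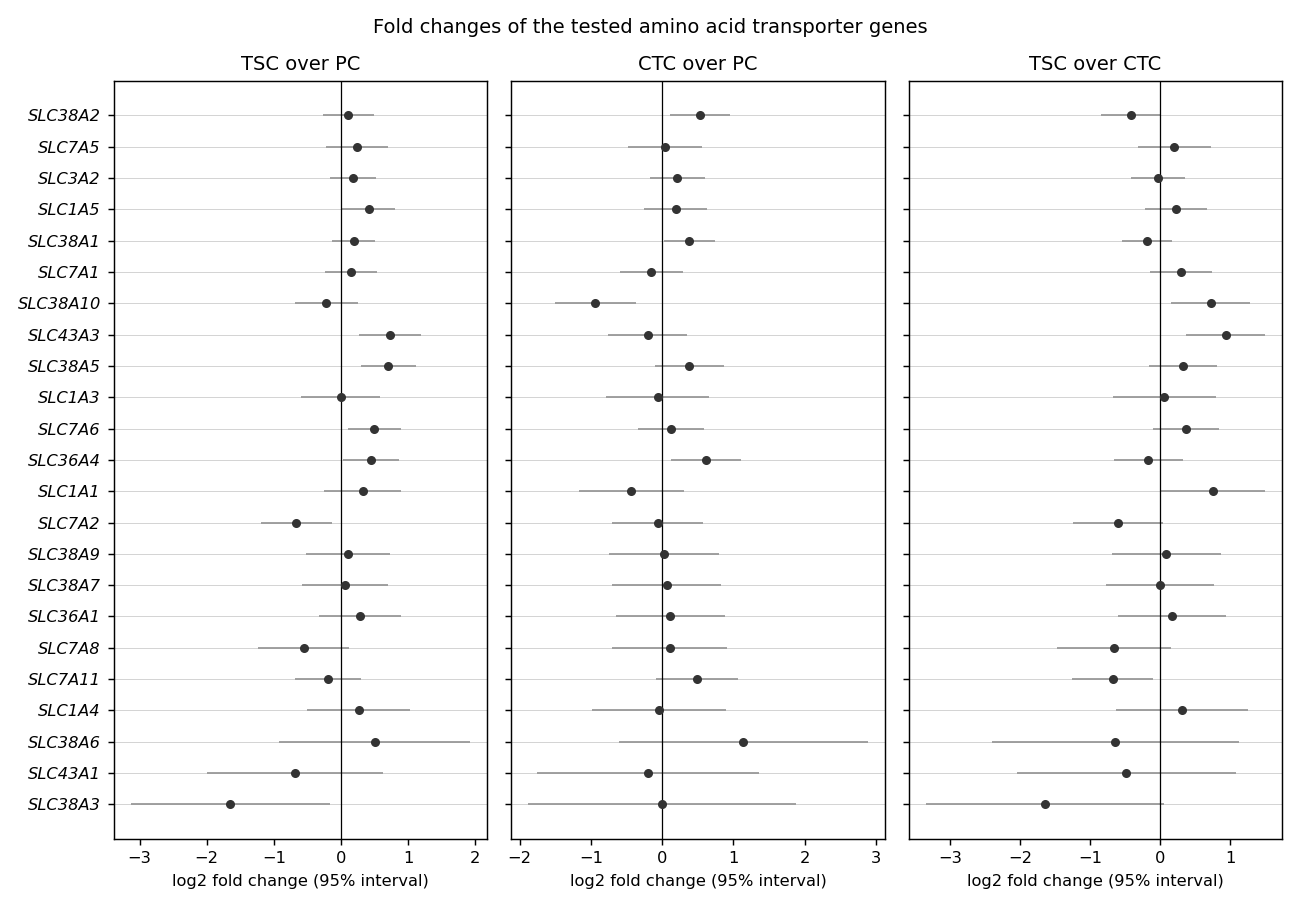
Log2 fold change with its 95% interval for the 23 tested transporter genes, for TSC over PC, CTC over PC and TSC over CTC, sorted by level with SLC38A2 at the top. Intervals widen towards the low genes at the bottom, and SLC38A10 in CTC over PC and SLC43A3 in TSC over CTC are the well-expressed genes farthest from 0.

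The genes that surround amino acid transport were followed in 6 lists. In the amino acid response, 26 of 31 genes were tested. In CTC against PC edgeR called 1 higher and 1 lower (3.92% of all genes). DESeq2 called 6 there, 3 of them higher (7.94%), and limma-voom 9, 5 of them higher (11.6%). The unadjusted p by edgeR was under 0.05 for 13 of 26 (23.6%). In TSC against PC edgeR called 0 of 26 (0.505% of all genes), DESeq2 1 (1.35%) and limma-voom 3 (3.88%), each of them lower. There 6 had an unadjusted p under 0.05 by edgeR (10.3%). In TSC against CTC all 3 tools called 0, and 4 had an unadjusted p under 0.05 (16.7%). CEBPG, a partner of ATF4, was at 113 and 121 CPM in CTC, against 64.7, 73.3 and 61.8 CPM in PC (log2 0.81 ± 0.19, adjusted p = 0.0316). DDIT3, which encodes the stress factor CHOP, fell to 9.97 and 7.34 CPM in CTC, against 17.5, 24.7 and 19.8 CPM in PC (−1.35 ± 0.34, adjusted p = 0.0386). Both groups were well apart for either gene. Each call was lost without CTC replicate 2, which leaves 1 CTC library (0.75 for CEBPG and −1.06 for DDIT3). Each was also lost without any 1 PC library and without TSC replicate 3. Calls over all genes fell there as well, from 559 to 154 to 182 and to 285. The list's median was 0.10 in CTC against PC, against −0.04 for all genes. PPP1R15A, a phosphatase subunit that ends the response, and EIF2S1, the factor that the response modifies, were at −0.87 ± 0.25 (adjusted p = 0.0632) and 0.74 ± 0.21 (adjusted p = 0.0633).

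The 20 aminoacyl-tRNA synthetases, which charge tRNA with amino acids, were all tested, and 0 were called by edgeR in any comparison. DESeq2 and limma-voom each called the same 3 in CTC against PC, NARS1, GARS1 and TARS1, all higher (7.94% and 11.6% of all genes). Each also called 1 in TSC against CTC, LARS1, lower (2.71% and 3.09% of all genes). In CTC against PC 11 of 20 had an unadjusted p under 0.05 (23.6% of all genes). The median log2 fold change was 0.37, against −0.04 for all genes. NARS1 was at 198 and 274 CPM in CTC, against 151, 164 and 135 CPM in PC (0.67 ± 0.20, adjusted p = 0.0682). GARS1 was at 0.57 ± 0.17 (adjusted p = 0.0761) and TARS1 at 0.68 ± 0.22 (adjusted p = 0.0858). In TSC against PC the median was 0.21 (0.01 for all genes), with 2 genes at an unadjusted p under 0.05 (10.3% of all genes). In TSC against CTC the median was −0.17 (0.06 for all genes), with 1 such gene (16.7%).

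Of 12 genes of cysteine and glutathione metabolism, the use to which imported cystine is put, 11 were tested. TXNRD1, the cytosolic thioredoxin reductase gene, rose in CTC to 387 and 671 CPM, against 258, 304 and 256 CPM in PC (0.97 ± 0.23, adjusted p = 0.0331). The call was lost without CTC replicate 2, which leaves 1 CTC library (0.50 ± 0.24). It was also lost without any 1 PC library, where calls over all genes fell from 559 to 154 to 182. GLRX, a glutaredoxin gene, was at −1.22 ± 0.34 (adjusted p = 0.0588), and DESeq2 and limma-voom called it beside TXNRD1 (7.94% and 11.6% of all genes). The subunits of the rate-limiting enzyme of glutathione synthesis, GCLC and GCLM, were at 0.59 ± 0.22 and 0.74 ± 0.36 (adjusted p = 0.133 and 0.225). In the other comparisons edgeR, DESeq2 and limma-voom called 0 of these genes, with 3 at an unadjusted p under 0.05 in TSC against PC (10.3% of all genes) and 0 in TSC against CTC (16.7%).

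In lysosomal sensing and mTORC1, 28 of 30 genes were tested and 0 were called in any comparison by edgeR, with 0, 4 and 7 of 28 at an unadjusted p under 0.05 in TSC against PC, CTC against PC and TSC against CTC, beside 10.3%, 23.6% and 16.7% of all genes. TFE3, a transcription factor of lysosomal genes, was at 11.0 and 6.68 CPM in CTC, against 20.5, 16.0 and 21.5 CPM in PC (−1.30 ± 0.36, adjusted p = 0.0553), and the Rag GTPase gene RRAGC at 0.98 ± 0.30 (adjusted p = 0.0744). In CTC against PC DESeq2 called both (7.94% of all genes) and limma-voom called TFE3 and SESN3 (11.6%). Neither tool called any in the other comparisons. Of 14 genes of glutamine and glutamate metabolism, 12 were tested and 0 called by edgeR, with 2, 1 and 1 of 12 at an unadjusted p under 0.05 in the same order, beside the same shares of all genes. GLUD1, the glutamate dehydrogenase gene, was at 0.60 ± 0.21 in CTC against PC (adjusted p = 0.107). It was called by limma-voom there and in TSC against PC (11.6% and 3.88% of all genes), and DESeq2 called 0. Of 31 amino acid transporters of other families, 7 were at 0 in all libraries, 15 were tested and 0 called by edgeR, DESeq2 or limma-voom, with 0, 1 and 1 of 15 at an unadjusted p under 0.05, beside these shares again. SLC15A4, the lysosomal carrier of histidine and peptides, was at 35.9 and 30.6 CPM in CTC, against 21.0, 20.9 and 20.5 CPM in PC (0.65 ± 0.23, adjusted p = 0.107).

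**Figure D4:**
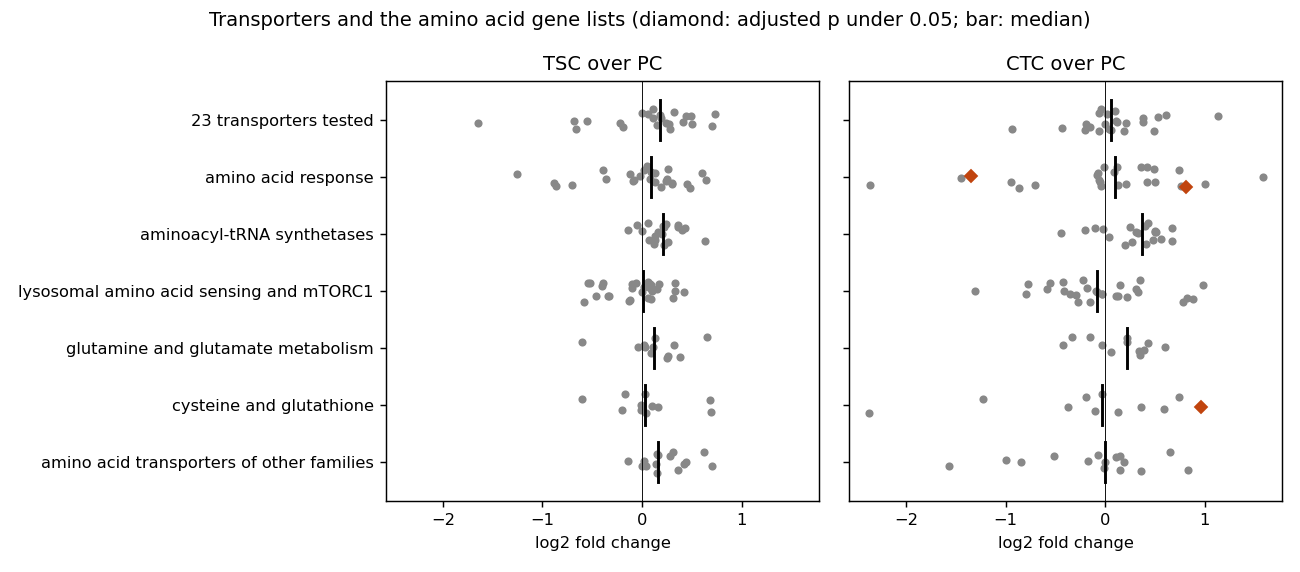
Log2 fold change of each tested gene for the transporters and the 6 lists, for TSC over PC and CTC over PC, with a bar at each median and a diamond for an adjusted p under 0.05 by edgeR. The diamonds are DDIT3, CEBPG and TXNRD1 in CTC over PC, and the synthetases have the median farthest from 0, at 0.37.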

How the data were processed

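The authors deposited raw counts per gene for 8 libraries of ribosome-depleted total RNA. STAR 2.5.3a, featureCounts 1.5.3 and the build hg38 appear in the submitters' processing notes, with annotation, strand setting and removal of host reads not given in the sources used here. No pair of libraries agreed within sampling noise. Counts were tested in R 4.3.3 with edgeR 4.0.16 (filterByExpr by group, TMM, glmQLFit and glmQLFTest, all 8 libraries in 1 fit with a group factor), on 14255 genes with Benjamini-Hochberg adjustment over all of them and a threshold of 0.05. Every adjusted p is from this fit unless another tool is named (DESeq2 1.42.0, limma 3.58.1). The SE is the log2 fold change divided by the square root of F, and intervals are 95%. Lengths are merged exons of protein-coding transcripts in GENCODE 29, and coordinates are from RefSeq on the same build. The members and lists were chosen with earlier results of these data known. Members named with full values are the 10 of highest level per length and a set of subunits and carriers fixed by name, and from each list up to 4 genes of smallest adjusted p. SLC7A2, SLC36A4, SLC38A3 and other members were added after their values were seen. The fitting code was tested on simulated data. Alternatives were another scaling, filters, tools, groups in the fit, a replicate block and leaving out each library.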

Additional observations from a re-analysis of the deposited data

How the results depend on the processing

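The number of members called was 0 in each comparison in the main analysis. In TSC against PC it was 2 by limma-voom and 0 under the other 14 alternatives. In CTC against PC it was 2 with no filter on low counts (SLC38A10 and SLC7A7), 1 by DESeq2, 1 by limma-voom, 1 with only the 2 groups compared, and 0 to 1 when single libraries were left out, the call being SLC38A10 each time. In TSC against CTC it was 1 with no filter (SLC43A3) and 0 to 1 when single libraries were left out (SLC38A10, without TSC replicate 1). Calls over all genes shifted too. In TSC against PC they were 553 by limma-voom, against 72 in the main analysis. In CTC against PC they were 1535 with no filter, 1132 by DESeq2, 1660 by limma-voom and 1409 with only the 2 groups, against 559. Without TSC replicate 1 or 2, where SLC38A10 was called, they were 1575 and 1054. In TSC against CTC they were 728 with no filter and 696 without TSC replicate 1, against 128. The cause of these shifts was not tested. No call of a member or named list gene changed its sign. Of 1026 member values under alternatives 11 became calls, and 66 values that were never calls changed sign. Same-numbered TSC and PC libraries did not deviate together (correlations of 0.0829, −0.200 and 0.107). The labels do not say whether the numbers pair the samples, and so few libraries cannot settle it. With the replicate block the members called stayed at 0, 0 and 0, and the calls over all genes were 67, 261 and 61, against 72, 559 and 128 without it; CEBPG, DDIT3 and TXNRD1 lost their calls in CTC against PC (adjusted p = 0.091, 0.0859 and 0.0863). CTC replicate 1 limits CTC values, and members under about 5 CPM have the widest intervals.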
